A study of Mus musculus with 6 samples.

Results

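Complement genes were followed in cerebral cortex of male mice, in 3 samples labelled Cux2 knock-out (genotype Cux2-/-, samples 53, 48 and 54) and 3 controls (samples 15, 62 and 16). The control samples are titled WT, yet their genotype label reads Cux2+/-, and since the labels do not settle which holds, they are called controls. The age of the mice and the design of the Cux2 allele are not given in the sources used here. RNA of every sample was read on a separate 1-colour Agilent array. The group of interest is 8 genes: C1qa, C1qb and C1qc, C3, C4b, the receptors C3ar1 and C5ar1, and Serping1. They were chosen by name, as every probe that the array files call by these symbols or by an older name, which gave 10 of 41174 probes (1 each for 6 genes, and 2 each for C3 and C3ar1).

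Complement is a cascade of plasma and tissue proteins. In the classical pathway C1q, a bundle of A, B and C chains, binds a target and activates the proteases C1r and C1s, which cleave C4 and C2. The resulting enzyme cleaves C3, whose fragments coat the target and are read by receptors such as the integrin of Itgam and Itgb2, while the small fragments C3a and C5a signal through C3ar1 and C5ar1. In brain, microglia are the main source of C1q, and C1q and C3 are known for marking synapses that microglia remove during development.

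The share of probes well above background lay between 58.5% and 72.7% per array. All 11 genes of a list of cortical identity, among them Tbr1, were well above background in at least 1 group. The brighter of 2 Cux2 probes differed by -0.12 (log2, knock-out minus control, limma adjusted p = 0.838), and since the labels do not give where this probe lies in the changed gene, it checks nothing about the genotypes. The labels do not say whether the samples of a group came from different mice, and p-values therefore refer to the spread among these samples, which may be technical. The number of arrays limits the precision.

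The C1q chain genes are shown first because they carried the only separation between the groups among these 8 genes. They are neighbours on chromosome 4, in the order C1qb, C1qc, C1qa with no other protein-coding gene between them in RefSeq. The sequence around the start of C1qb and C1qc, 250 bases before to 50 after it, is printed from RefSeq on GRCm38.p6, 5′ to 3′ on the gene's strand. Both genes lie on the minus strand, C1qb at chr4:136886151-136886450 and C1qc at chr4:136892865-136893164. Capitals mark matches, on either strand, to GAGGAA, the core of sites of the myeloid factor PU.1, and to the inverted repeat TTCNNGAA.
C1qb: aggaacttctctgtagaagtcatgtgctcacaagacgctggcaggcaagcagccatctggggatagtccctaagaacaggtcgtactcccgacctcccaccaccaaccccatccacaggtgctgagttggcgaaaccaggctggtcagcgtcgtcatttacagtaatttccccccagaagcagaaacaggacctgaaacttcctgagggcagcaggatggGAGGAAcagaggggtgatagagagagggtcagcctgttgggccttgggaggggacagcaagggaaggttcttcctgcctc
C1qc: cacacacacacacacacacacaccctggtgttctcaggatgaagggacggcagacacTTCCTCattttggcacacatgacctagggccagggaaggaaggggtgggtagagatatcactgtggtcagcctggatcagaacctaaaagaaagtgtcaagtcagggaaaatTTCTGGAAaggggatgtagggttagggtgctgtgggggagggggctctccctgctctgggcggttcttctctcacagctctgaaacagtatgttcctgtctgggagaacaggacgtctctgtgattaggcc
C1qb held 1 match to GAGGAA, 30 bases before the start, and C1qc held 1 on the opposite strand, 193 bases before it. C1qc also held TTCTGGAA, 81 bases before the start, which overlaps no other match. Of 32851 RefSeq promoter windows of this length 28.3% hold GAGGAA and 8.52% hold TTCNNGAA, so these matches are descriptions of the letters and not of binding. Neither window held TATAAA, which 13.6% of windows hold. Windows were matched for 5 of the 8 genes (C1qb, C1qc, C3, C3ar1 and C5ar1).

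All 3 C1q chain genes stood lower on every knock-out array than on any control array. Values are on a log2 scale on which 0 is the 75th percentile of processed signal on that array. C1qa, the A chain, read 2.29, 1.87 and 2.39 in controls 15, 62 and 16, and knock-outs 53, 48 and 54 read 1.59, 1.74 and 1.62. The lowest control and the highest knock-out array were 0.13 apart. C1qb, the B chain, read 1.19, 0.99 and 1.78 in controls and 0.48, 0.47 and 0.70 in knock-outs, with a gap of 0.29. C1qc, the C chain, read 2.93, 2.74 and 3.22 in controls and 2.17, 2.33 and 2.50 in knock-outs, with a gap of 0.24. Control 16 was the highest and control 62 the lowest control for each chain, while the knock-out arrays took a different order in each.

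The C1qa mean was 2.18 ± 0.27 in controls and 1.65 ± 0.08 in knock-outs (SD, n = 3 each), a difference of -0.53 (SE 0.15, 95% interval -0.88 to -0.19). This is 69.0% of the control signal, with an interval of 54.2% to 87.8%. For C1qb the means were 1.32 ± 0.41 and 0.55 ± 0.13 (SD, n = 3 each), a difference of -0.77 (SE 0.21, interval -1.26 to -0.28) or 58.7% of control. For C1qc they were 2.96 ± 0.24 and 2.33 ± 0.17 (SD, n = 3 each), a difference of -0.63 (SE 0.15, interval -0.99 to -0.27) or 64.7% of control. With p-values adjusted (Benjamini-Hochberg) across the 25505 probes tested, none of the 3 passed the threshold of 0.05, at limma adjusted p = 0.416 for C1qa, 0.405 for C1qb and 0.333 for C1qc. Unadjusted limma p was 0.0087, 0.0081 and 0.0045 in the same order.

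**Figure D1:**
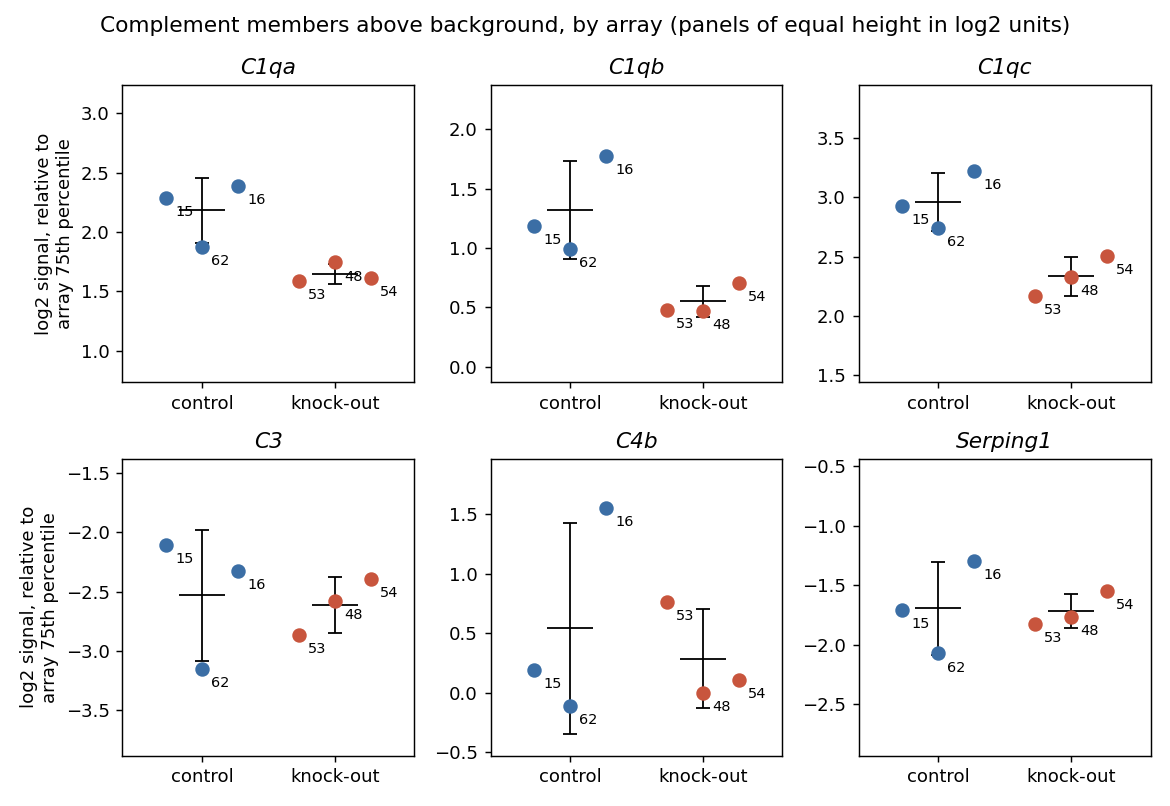
Log2 signal, with each array's 75th percentile set to 0, for the 6 genes measured above background, 1 panel per gene. Points are arrays with their sample numbers, blue for control and red for knock-out, and bars give the mean ± SD of 3 arrays. The groups do not overlap for C1qa, C1qb and C1qc and overlap for C3, C4b and Serping1.

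Such separation was common. Of 17122 genes tested, by the brightest probe of each, 7.24% had all knock-out arrays below all controls, 6.38% had all above, and 13.6% thus had groups without overlap. An unadjusted p under 0.05 was reached by 4.38% of genes with a lower and by 3.89% with a higher knock-out mean. After adjustment 0.128% of genes passed, 0.0584% higher and 0.0701% lower, as did 0.129% of probes. Among the 6 complement genes measured above background on all 6 arrays 0 passed after adjustment in limma, and 3, the C1q chains, had an unadjusted p under 0.05. All 6 differences were below 0, as were those of 51.8% of all genes, and the median of the 6 was -0.40, against -0.01 over all genes tested. In bulk tissue fewer cells of a type and less RNA per cell cannot be told apart.

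The arrays lie on 2 slides. Within slide 1, with control 15 against knock-outs 48 and 54, the difference was -0.61 for C1qa, -0.60 for C1qb and -0.51 for C1qc. Within slide 2, with controls 62 and 16 against knock-out 53, it was -0.54 for C1qa, -0.90 for C1qb and -0.81 for C1qc. With slide as a block the limma adjusted p was 0.489, 0.548 and 0.426. Without control 16 the C1qb difference was -0.54 and those of C1qa and C1qc were -0.43 and -0.50.

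Microglial markers stood lower on the same arrays. Of 26 listed markers, which exclude the 8 complement genes, 25 were tested and 23 of them were lower in knock-outs, by a mean of -0.31 over the 25. Their summed signal, in units of the array's 75th percentile, was 79.2 to 95 on control arrays and 65.5 to 68.2 on knock-out arrays. After adjustment 0 markers passed in limma, and 15 had an unadjusted p under 0.05, all lower, against 4.38% of all genes. For 14 of the 25 all knock-out arrays lay below the controls and for 1 all lay above. Over all genes the shares were 7.24% and 6.38%. Markers of lowest p were Selplg, a selectin ligand, at -0.41 (limma adjusted p = 0.222), Fcgr3, an Fc receptor, at -0.73 (adjusted p = 0.227) and Ly86, a secreted partner of CD180, at -1.02 (adjusted p = 0.255). The myeloid factor Spi1, which encodes PU.1, was the only listed marker not well above background on all arrays of either group.

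The C1q chains lay toward the lower end of this range. Only Ly86 lay below C1qb, 2 of the 25 markers lay below C1qc and 3 lay below C1qa. As deviations from the 6-array mean, the 3 chains averaged 0.30, 0.03 and 0.63 on controls 15, 62 and 16 and -0.42, -0.32 and -0.23 on knock-outs 53, 48 and 54. The 25 markers averaged 0.09, 0.11 and 0.26 on the same controls and -0.16, -0.16 and -0.14 on the knock-outs. Among markers chosen after their values were seen, the microglial receptors Cx3cr1, P2ry12 and P2ry13 differed by -0.01, -0.13 and 0.08, and Mpeg1, a perforin-like protein, by 0.57 with all knock-out arrays above the controls. The mean of the chains less that of the markers was 0.21, -0.07 and 0.37 on the controls and -0.26, -0.15 and -0.09 on the knock-outs. The part of microglial content in the C1q values was not tested.

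**Figure D2:**
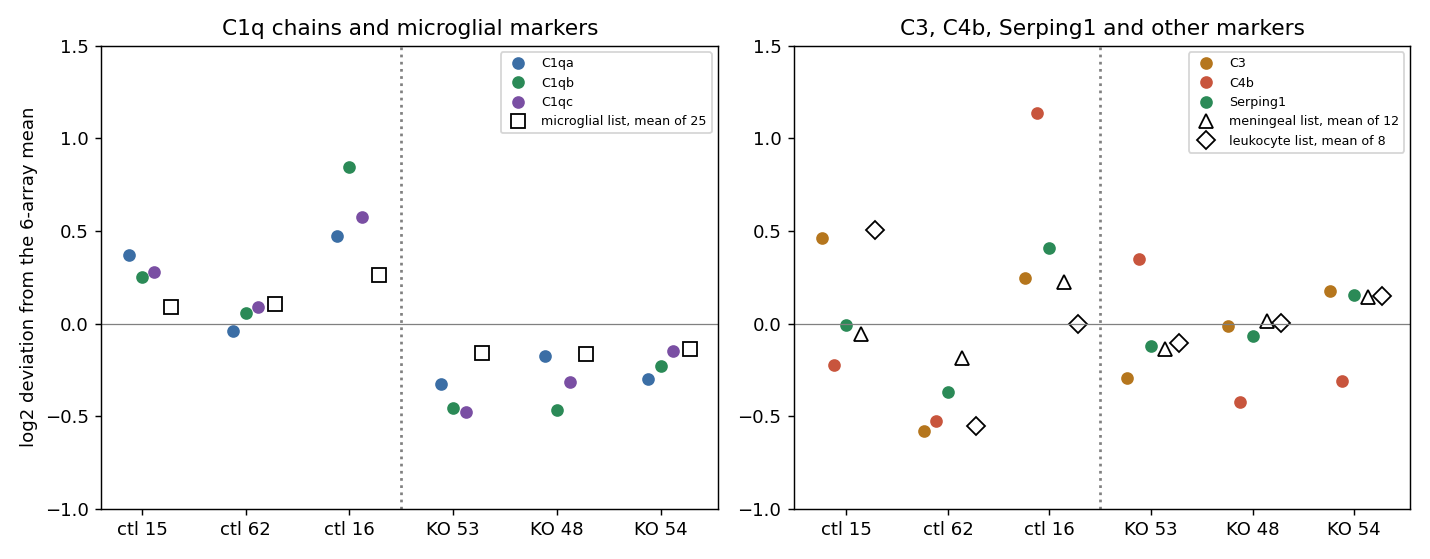
Deviation of log2 signal from each gene's 6-array mean, by array, for C1q chains with the mean of 25 microglial markers (left) and for C3, C4b and Serping1 with the means of 12 meningeal and 8 leukocyte markers (right). The C1q chains and the microglial mean lie below 0 on all 3 knock-out arrays, while C4b is highest on control 16.

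Astrocyte markers were lower in 14 of 16 (mean -0.15), with a summed signal of 399 to 459 on control and 371 to 389 on knock-out arrays. Those of lowest p were Ndrg2 (-0.34), S100b (-0.30) and Gfap (-0.58), the intermediate filament of astrocytes. Neuronal markers were higher in 7 of 12 (mean 0.00). The 8 of 13 macrophage and leukocyte markers that were tested had a mean of 0.03, with summed signals of 1.05 to 4.62 in controls and 1.52 to 2.98 in knock-outs. The highest sums rest largely on S100a9, the most variable of the 8. It read 1.73, -2.59 and 0.70 on controls 15, 62 and 16 and -1.09, -0.37 and 0.89 on knock-outs 53, 48 and 54. In these 3 lists 0 genes passed after adjustment in limma. An unadjusted limma p under 0.05 was reached by 3 of 16 astrocyte and 1 of 12 neuronal genes, against 8.27% of all genes.

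The genes whose pattern was most like the mean of the C1q chains were found by the mean absolute difference of the centred log2 values over the 6 arrays, among 17122 genes. They included Thoc2l (0.07), Cenph (0.09), Atp13a4 (0.09), Itgb3 (0.09), Papss2 (0.09), Tnfaip8l2 (0.10) and Fam167b (0.10), against a median of 0.34 over all genes. Papss2 was near background. On knock-outs 53 and 48 (-5.37 and -5.60) it lay below the dimmest probe well above background. It thus entered the test through the controls, the group where it was higher. The nearest genes listed had differences from -0.76 (Itgb3) to -0.46 (Fam167b), none past the threshold (limma adjusted p from 0.0817 to 0.620). They were picked for likeness to a profile lower on every knock-out array. Their lower knock-out means therefore follow from the choice and are no separate result. The chains themselves, which made the profile, ranked 1 (C1qc), 4 (C1qb) and 16 (C1qa). C3, C4b and Serping1 ranked 7860, 14674 and 4992. Of the microglial markers 4 of 25 ranked within the nearest 100 genes, Irf8, Ctss, Tyrobp and Csf1r.

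Genes flanking the C1q cluster were read for comparison. Ephb2, the next tested gene beyond C1qb and a receptor of ephrins, differed by 0.04 (limma adjusted p = 0.974). Beyond C1qa and the untested Epha8, Zbtb40 differed by -0.34 (limma adjusted p = 0.525) and Wnt4 by -0.22 (adjusted p = 0.851).

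C3, the central component cleaved by all activation routes, showed no difference that stood out from the spread between arrays. Its brighter probe is printed as 10 spots on each array, which gives the spread between spots. On controls 15, 62 and 16 the spots averaged -2.11, -3.15 and -2.33, and on knock-outs 53, 48 and 54 they averaged -2.86, -2.58 and -2.39. The SD among the 10 spots was 0.06 to 0.12 per array and the array means spanned 1.04. Spots of 1 array share RNA, labelling and hybridisation, so their SD holds no error between arrays or samples. The group means were -2.53 ± 0.55 and -2.61 ± 0.24 (SD, n = 3 each), a difference of -0.08 (SE 0.28, interval -0.75 to 0.58, limma adjusted p = 0.972). The interval runs from 59.5% to 149.7% of control. Without control 15, without control 16 or without knock-out 53 the C3 difference was 0.13, 0.018 and 0.041. A second C3 probe was well above background on no array, between -9.09 and -5.84.

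**Figure D3:**
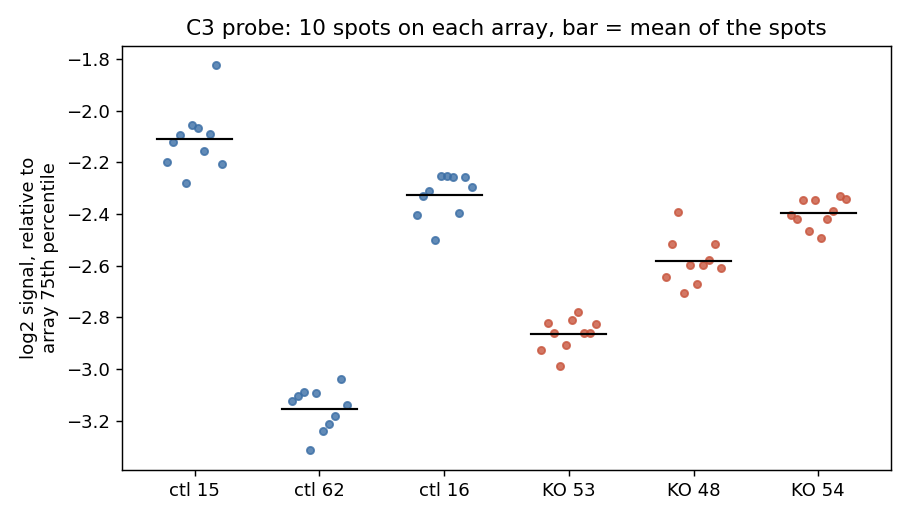
Log2 signal, with each array's 75th percentile set to 0, of the 10 spots of the brighter C3 probe on each array, with a bar at their mean. Spots of 1 array spread by 0.16 to 0.45, while the array means span 1.04 and the 3 controls lie on both sides of the knock-outs.

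C4b encodes the C4 component cleaved by C1s. It read 0.19, -0.11 and 1.55 on controls 15, 62 and 16 and 0.76, -0.01 and 0.11 on knock-outs 53, 48 and 54. Control 16 stood above all other arrays, control 62 stood below them and control 15 lay among the knock-outs. The means were 0.54 ± 0.89 and 0.29 ± 0.41 (SD, n = 3 each), a difference of -0.26 (SE 0.45, interval -1.32 to 0.81, limma adjusted p = 0.940). Without control 16 the difference turned to 0.25, and it was -0.14 within slide 1 and 0.04 within slide 2. C4a, the paralog with a near-identical sequence, had 1 probe, well above background on no array and between -8.42 and -6.68, and whether the C4b probe also reads C4a transcripts is uncertain.

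Serping1, the C1 inhibitor that blocks C1r and C1s, read -1.71, -2.07 and -1.30 on controls 15, 62 and 16 and -1.83, -1.77 and -1.55 on knock-outs 53, 48 and 54. All 3 knock-outs lay within the range of the controls. The means were -1.69 ± 0.39 and -1.72 ± 0.15 (SD, n = 3 each), a difference of -0.02 (SE 0.20, interval -0.50 to 0.45, limma adjusted p = 0.990). Without control 16 it was 0.18, without knock-out 53 it was 0.033 and without knock-out 48 it was 0.0041. Within slides it was 0.05 and -0.14, and that of C3 was -0.38 and -0.12.

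Control 62 was the lowest array for C3, C4b and Serping1. It was also the lowest for the mean of 12 meningeal markers (-0.19 as a deviation from the 6-array mean, against 0.22 on the highest array, control 16) and of 8 macrophage and leukocyte markers (-0.55, against 0.51 on control 15). S100a9, the most variable of the 8, read -2.59 on control 62 and 1.73 on control 15. Of the red blood cell list 3 genes were tested, all 3 higher in knock-outs (mean 0.53) with 0 past the threshold or an unadjusted p of 0.05 in limma. Their mean was -1.05 on control 62 and -0.49 on knock-out 53, which were also the 2 lowest arrays for C3, and 0.92 on the highest array, knock-out 54. The mean of the vessel list was lowest on control 62 too (-0.10). That of the reactive astrocyte list, which counts Serping1 itself, was -0.26 there and -0.24 on knock-out 53. The mean of 9 choroid plexus markers was instead highest on control 62 (0.88) and lowest on control 15 (-0.88). Serping1 and the meningeal mean were both highest on control 16, then on knock-out 54. Summed signal of the meningeal list was 20.8 to 26.8 on control and 21.6 to 25.6 on knock-out arrays, with 7 of 12 markers higher in knock-outs and 0 past the threshold or an unadjusted p of 0.05 in limma. Of the leukocyte list Ccr2, Plac8 and S100a8 were among those not well above background on all arrays of either group. Their part in these values was not tested.

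The anaphylatoxin receptors were hardly measured. C5ar1, the C5a receptor, had 1 probe, well above background on 0 of 6 arrays. It read -7.12, -7.90 and -8.78 in controls and -7.48, -5.29 and -8.29 in knock-outs, each below the dimmest probe well above background on its array. C3ar1, the C3a receptor, had a probe well above background on control 16 (-5.20) and knock-out 54 (-5.56) alone, with -6.02 and -6.07 on controls 15 and 62 and -5.24 and -5.26 on knock-outs 53 and 48. Its second probe was well above background on no array and lay between -7.93 and -6.58. These probes did not enter the test, and no fold is given because both groups were at background on most arrays.

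The other genes of the cascade were taken from a list of 52, all on the array, of which 30 were tested. Of these 9 were higher and 21 lower in knock-outs, with a median of -0.08. After adjustment 0 passed in limma, where 0.128% of all genes did. An unadjusted p under 0.05 was reached by 2 higher and 3 lower genes, against 8.27% of all genes in either direction. Of the 30 genes, 4 had all knock-out arrays below the controls and 1 had all above. Over all genes 7.24% had all below and 6.38% all above, 13.6% in either direction.

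Among initiation genes 7 of 8 tested were lower (median -0.14), including the C1q partner proteases C1ra at -0.01 and C1s1 at -0.22 and the C4 partner C2 at -0.30. C1s1 was well above background on 3 control arrays but only 2 knock-out arrays. It thus entered the test through the controls, the group where it was higher, and was near background. The ficolin Fcna stood at 0.69 (interval 0.03 to 1.36, limma adjusted p = 0.611), with overlapping groups. It was well above background on every array but dim, with means of -5.07 in controls and -4.38 in knock-outs. In the alternative pathway Cfp, properdin, stood at -0.20 (adjusted p = 0.676), and Cfb and Cfd were not well above background on all arrays of either group. Of the terminal components only Hc, the C5 gene, at -0.08 and C8g at -0.29 were tested. C8g had all knock-out arrays below the controls.

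Regulators were split, 4 higher and 7 lower of 11. Cr1l, named Crry on the array, a membrane inhibitor of C3 cleavage, stood at 0.27 with all knock-out arrays above the controls (limma adjusted p = 0.603). Cd55, which dissociates the C3-cleaving enzymes, stood at -0.25 with all below (adjusted p = 0.609), and Cd59b, an inhibitor of the membrane attack complex, at -0.30 (adjusted p = 0.772).

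Among receptors and uptake proteins 4 of 8 were lower. C5ar2, a second C5a receptor named Gpr77 on the array, stood at -0.41 (interval -0.69 to -0.13, limma adjusted p = 0.458), and Itgam, the alpha chain of the receptor for C3 fragments on microglia, at -0.56 (interval -1.003 to -0.11, adjusted p = 0.521). Itgam read -2.84, -2.72 and -2.27 on controls 15, 62 and 16 and -2.90, -3.34 and -3.26 on knock-outs 53, 48 and 54, and C5ar2 read -2.72, -2.54 and -2.93 against -3.23, -3.16 and -3.03. Both had all knock-out arrays below the controls. The beta chain Itgb2 stood at -0.29 with overlapping groups, and Cd93, a surface protein of endothelial and myeloid cells, at 0.30 (adjusted p = 0.710).

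**Figure D4:**
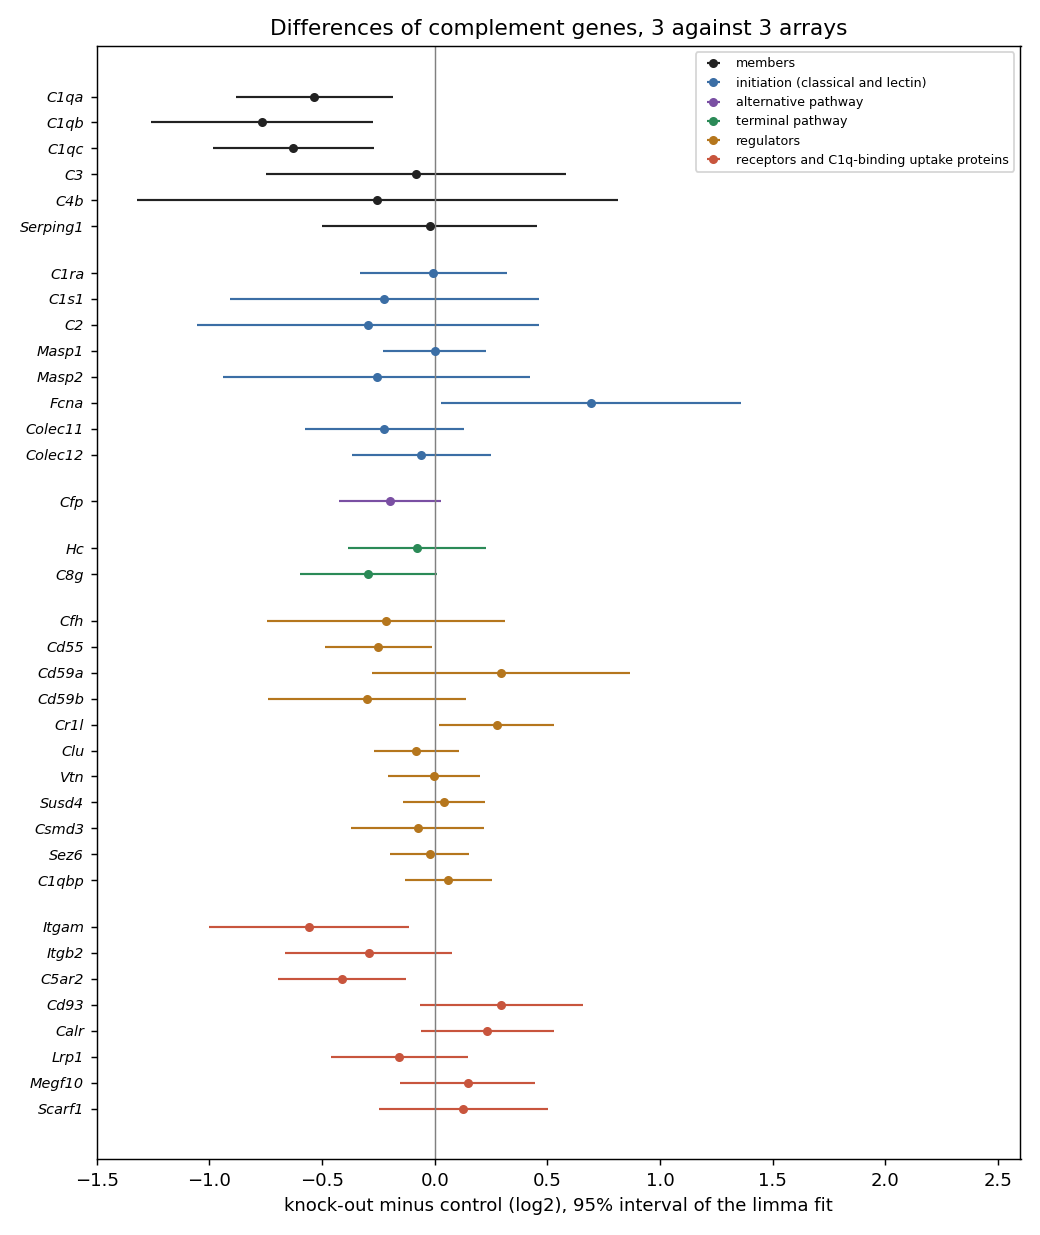
Knock-out minus control difference (log2) with the 95% interval of the limma fit for the 6 tested members and 30 other complement genes, coloured by role. The intervals of C1qa, C1qb and C1qc lie below 0, those of C3, C4b and Serping1 span it, and none of the 36 genes passed after adjustment over all probes.

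The 3 C1q chains stayed below 0 under other processing and with 1 array left out. C3 and Serping1 crossed 0 under both, and C4b crossed it only without control 16. Over 15 alternatives C1qa lay between -0.69 and -0.36, C1qb between -0.93 and -0.54 and C1qc between -0.74 and -0.45, with limma adjusted p from 0.157 to 0.988 for C1qa, 0.313 to 0.988 for C1qb and 0.245 to 0.988 for C1qc. The values nearest 0 for C1qa and C1qc came without scaling between arrays. In that setting the median over all genes was 0.17, and C1qb alone of the 6 had an unadjusted p under 0.05. C3 was below 0 in 10 of 15 alternatives, Serping1 in 10 and C4b in 14.

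**Figure D5:**
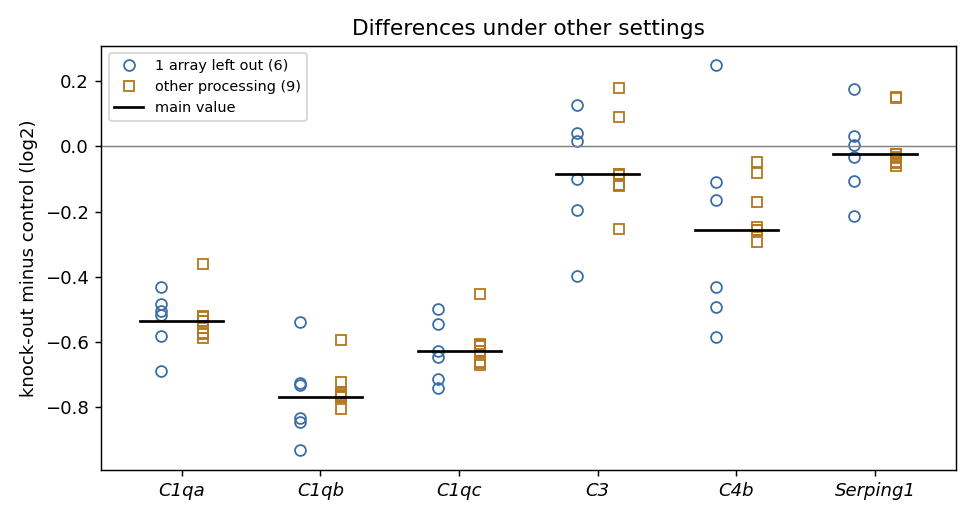
Knock-out minus control difference (log2) of the 6 tested members in the main setting (bar), with 1 array left out (circles, 6 per gene) and under other processing (squares, 9 per gene). All values of C1qa, C1qb and C1qc lie below 0, and those of C3, C4b and Serping1 fall on both sides.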

How the data were processed

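Per the labels' protocols, cRNA carrying Cy3 was made from total RNA of 6 cortex samples. The scans were read by Feature Extraction 9.1.3.1, per the file headers. The deposited processed signal is an intensity, equal in the files to background-subtracted signal divided by a multiplicative detrending term. Mean spot signal and local background are deposited intensity values without correction. The authors' deposited table holds log2 values with the same median (6.75) in every column and the probe order of the processed signal. How it was normalized is not given in the sources.

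Control spots (1639 per array) and outlier spots were left out, 0 spots were saturated, and spots of a probe were averaged. Processed signal was put on a log2 scale and scaled by the array's 75th percentile. Testing needed a flag of well above background on every array of either group (25505 of 41174 probes, 17122 genes by brightest probe). All 6 tested members passed on all 6 arrays. Probes took RefSeq names (assembly GRCm38.p6) by accession, symbol or synonym, and 8458 kept the array name. Differences were fitted with limma 3.58.1 (R 4.3.3) with Benjamini-Hochberg adjustment, and intervals are 95%. In simulated data for this comparison (25443 probes, 50 changed per fold) 46% of probes changed 1.5-fold and 68% changed 2-fold were recovered, with 8 false calls. The simulated noise was independent between probes and held no slide effect. The same simulated set also held probes changed 4-fold and 8-fold, and many strong changes ease the Benjamini-Hochberg threshold. On the real arrays, with 33 probes called, recovery may therefore be lower, and false calls may differ. Figures used matplotlib 3.10.9 (Python 3.11.15, pandas 2.3.3, numpy 2.4.6).

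The members, lists and tests were chosen with earlier results of these data known. Genes named are all members and, by rule, those among the 3 of lowest p in each complement and cell type list, and the 8 most like C1q. All other genes named with a value or rank (such as C1ra, C1s1, Itgb2, Tbr1, Cx3cr1, Mpeg1, Irf8 and the C1q neighbours) fall outside this rule and were chosen with values seen. Some genes the rule names are not reported here. Alternatives changed scaling, background correction, filter, slide block, values, probe summary and arrays left out.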

Additional observations from a re-analysis of the deposited data

How the results depend on the processing

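Over 15 alternatives 0 member probes and 0 of the other complement genes passed in limma, with 1 to 3 member probes and 0 to 7 of the other genes at an unadjusted p under 0.05. The median difference of the 6 tested members stayed below 0, from -0.43 to -0.22 under other processing and from -0.64 to -0.21 with 1 array left out. The 33 probes called over the whole array became 15 with slide as a block, 2 without a filter on dim probes and 0 with normexp background correction (149 at an unadjusted p under 0.05), and 2 to 62 with 1 array left out (2 without control 15 or without control 16, 13 without knock-out 54 and 62 without knock-out 53). On 3 arrays, control 16 and knock-outs 48 and 54, 8, 37 and 8 spots had a local background above 2 times the array's median. With these set to the median, a choice made after seeing the data, normexp called 43. With 1 array left out C3 lay between -0.40 and 0.13 and C4b between -0.58 and 0.25. C3 turned to 0.090 without scaling, 0.18 with normexp, 0.13 without control 15, 0.018 without control 16 and 0.041 without knock-out 53. Serping1 turned to 0.15 without scaling, 0.15 with normexp, 0.18 without control 16, 0.033 without knock-out 53 and 0.0041 without knock-out 48. C4b turned to 0.25 without control 16. The cause of these turns was not tested. No paired analysis was run, since the sample numbers name no pairs between the groups. Signal over background limits C3ar1 and C5ar1, and 3 arrays per group limit the rest.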

Other observations

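Genes of reactive astrocytes, among which complement genes are often counted, gave no common direction. Of 14 listed genes 10 were tested, Serping1 among them, and 3 were higher and 7 lower in knock-outs (median -0.08). In limma 0 passed the threshold and 1 of 10 had an unadjusted p under 0.05, against 8.27% of all genes. Serpina3n, an acute-phase protease inhibitor, stood at 1.16 (limma adjusted p = 0.586) and read -0.73, -1.52 and -1.21 on controls 15, 62 and 16 and -1.004, 0.54 and 0.49 on knock-outs 53, 48 and 54. Its high arrays, knock-outs 48 and 54, were among the lower arrays for C4b, at -0.01 and 0.11.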
